A study of Mus musculus with 24 samples.

Results

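Day 5 on Matrigel was compared with day 0 in cells of the bipotent mouse hepatoblast line HBC-3. The comparison took 6 of the 24 arrays of the series, chosen by their titles, with 3 arrays of day 5 and 3 of day 0 lettered A, B and C within each day. The day 0 group held undifferentiated HBC-3 cells on plastic, and the day 5 group held the same line after 5 days of differentiation on Matrigel, which is a basement membrane extract. Arrays of days 1, 4 and 6, with 3 arrays each, served for the comparison of day 5 with other days. Cells of all groups had first been freed of their STON+ feeder cells with trypsin and replated, and total RNA was amplified before labelling. A common reference, made from pooled plates of undifferentiated cells, was labelled with Cy3 and each sample with Cy5, and no label records a dye swap. Both channels of a day 0 array therefore held undifferentiated cells. The labels name 1 cell line and do not state that a day's arrays came from different cultures, so p-values here reflect array-to-array spread alone, which may be technical.

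Hepatoblasts are the bipotent progenitors of fetal liver. They divide, express fetal transcripts such as alpha-fetoprotein and H19, and give rise to hepatocytes, which secrete most plasma proteins, and to the cells that line bile ducts. Basement membrane gels contact such cells through integrins, and cells that move from stiff plastic to a soft gel usually remodel their actin stress fibres and focal adhesions.

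Values are log2 ratios of the sample over the reference, each array centred on its median, and a gene's value is the mean over its features. A value of 1 therefore means a doubling against undifferentiated cells, and the ratio says nothing of a gene's absolute level. The log base and the numerator of the deposited ratio are not stated in the labels. Base 2 was inferred from the range of the values and the sample as numerator from its dye, so both remain likely rather than known. In all, 10639 genes or unnamed features had values on at least 2 arrays of every day and were tested, 5660 of them genes. Changes are the fitted difference of day 5 minus day 0 with its standard error, and a gene is called when limma's p-value, adjusted over all 10639 units by the Benjamini-Hochberg method, is under 0.05.

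Between 12328 and 22149 of 24157 features had a value on an array of the series. Log ratios had an SD of 0.332 to 0.473 at day 0. At day 5 it was 0.669 for array A, 0.852 for B and 1.051 for C. Across features, day 5 arrays A and B correlated at 0.779, whereas array C correlated at 0.468 with A and at 0.479 with B. Array C was instead close to the C arrays of day 4 (0.967), day 7 (0.938) and day 6 (0.862). Array A correlated at 0.915 with day 4 array A, and array B at 0.918 with day 7 array B. The day 0 arrays also differed among themselves. Array A correlated at 0.755 with B but at -0.343 with C, and the value for B with C was 0.084. Day 5 array B correlated at -0.326 with day 0 array A and at -0.316 with day 0 array B. Since undifferentiated cells filled both channels at day 0, the sign of these day 0 values is not settled by the data, and results are also given with the day 0 signs turned. Features are not independent replicates, so these correlations describe the arrays only.

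**Figure D1:**
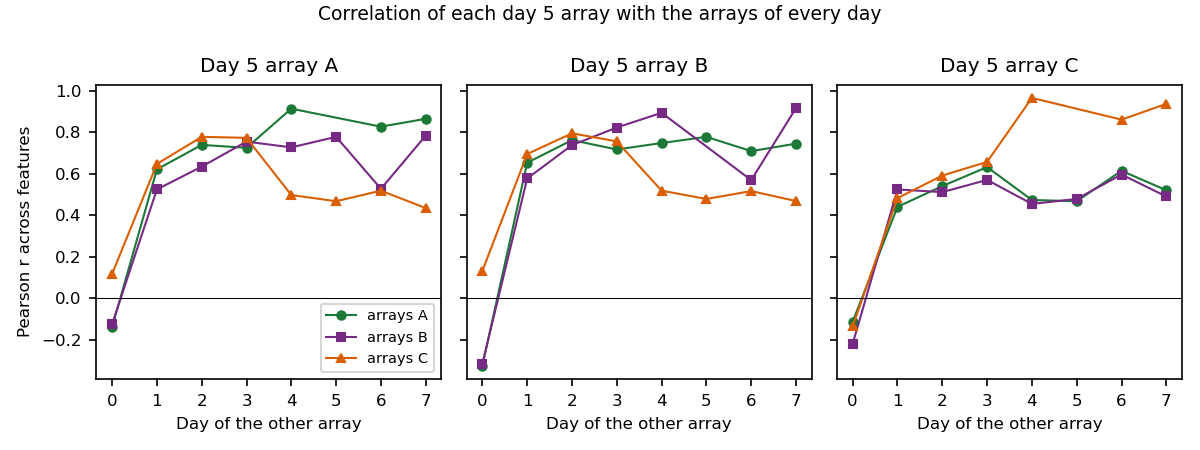
Pearson correlation across features (vertical axis) of day 5 arrays A, B and C, 1 panel each, with the arrays of every day (horizontal axis, day), coloured by the letter of the other array. On days 4, 6 and 7, array C lies at 0.862 to 0.967 with other C arrays and at 0.455 to 0.615 with A and B arrays, and all 3 day 5 arrays lie between -0.326 and 0.132 against day 0.

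At day 5, 1243 units (11.7% of those tested) were higher and 1192 (11.2%) were lower than at day 0, and 3868 had an unadjusted p under 0.05. Among the 5660 genes, 732 were higher and 585 were lower. Of the 8437 units with a value on all 6 arrays, 1633 had all 3 day 5 arrays above all 3 day 0 arrays and 1526 had them below. Leaving out day 5 array C gave 1536 calls in place of 2435, leaving out day 0 array A gave 1460 and leaving out day 0 array B gave 1227. Without day 5 array C, 1382 of the 2435 units were still called in the same direction. Turning the sign of the day 0 arrays left 1342 calls, 617 higher and 725 lower, and 886 of the 2435 units were called in the same direction. When day 5 was tested against the reference channel alone, 2201 of the 2435 were called in the same direction. Among the 2403 called units with a value on array C, none had a change on array C opposite to that of arrays A and B. Calls were made from the mean of all 3 arrays, so this was close to fixed in advance and says little about array C.

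The gene with the largest rise was Clu, which encodes clusterin, a secreted chaperone of blood plasma. In the order of arrays A, B and C, which is kept for all genes, Clu was -1.04, -1.45 and -0.30 at day 0 and 5.07, 6.12 and 6.88 at day 5. The rise was 6.96 ± 0.54 on the log2 scale, or 124-fold (adjusted p = 5.58e-08), and it was 5.10 with the day 0 signs turned. Dcn, which encodes decorin, a small proteoglycan that binds collagen, went from -2.72, -3.34 and -0.54 to 2.48, 4.11 and 3.18. Dcn rose by 5.46 ± 0.68 (adjusted p = 2.09e-05), although day 0 arrays A and B lay far below array C, and with the day 0 signs turned its change was 1.05 (adjusted p = 0.346). Selenop, the selenium carrier of plasma made mainly by liver, went from -0.78, -1.14 and -0.56 to 3.18, 3.69 and 4.82. That is a rise of 4.72 ± 0.47, or 26.4-fold (adjusted p = 2.11e-06), with array C the highest. H19, an imprinted noncoding RNA abundant in fetal liver, moved from 0.03, -0.35 and 0.25 to 4.04, 5.24 and 2.76, a rise of 4.04 ± 0.84 (adjusted p = 0.00191) that was smallest on array C.

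A further 6 genes completed the 10 largest rises with a value on all arrays and no overlap between the days. Tgfbi, a TGF-beta target that encodes a matrix protein, rose by 3.55 ± 0.49, from -0.59, -0.95 and -0.30 to 1.82, 3.70 and 3.30. Fzd1, a Wnt receptor, rose by 3.55 ± 0.65 and reached 1.38 and 2.71 on arrays A and B and 4.34 on array C. Ldhb, a subunit of lactate dehydrogenase, rose by 3.54 ± 0.58, to 2.21, 3.55 and 3.29. Il33, a nuclear cytokine of the interleukin 1 family, spread from 0.09 on array A to 1.84 on B and 3.76 on C, and its rise of 3.38 ± 0.79 shrank to 0.40 with the day 0 signs turned (adjusted p = 0.789). Pnrc1, a nuclear receptor coactivator, rose by 3.33 ± 0.51 and Ctla2b, which encodes a protein like the propeptide of cysteine proteases and has a close copy in Ctla2a, by 3.15 ± 0.52. The call of Ctla2b was lost with the day 0 signs turned (1.32, adjusted p = 0.0987).

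Zyx, which encodes zyxin, a protein of focal adhesions and stress fibres, had the largest fall among genes measured on all 6 arrays. It stood at 0.79, 1.14 and 0.26 at day 0 and at -1.23, -3.54 and -4.31 at day 5, and fell by 3.76 ± 0.70 on the log2 scale, or 13.5-fold (adjusted p = 0.000808). Gadd45g, a growth arrest and stress gene, went from -0.41, 0.52 and 0.34 to -2.89, -3.20 and -4.34, a change of -3.63 ± 0.37 (adjusted p = 3.25e-06). Tpm2, a tropomyosin of actin filaments, went from 0.08, 0.54 and 0.37 to -2.12, -3.32 and -3.23, a change of -3.22 ± 0.42. For both genes all 3 day 5 arrays lay at least 2 log2 units below every day 0 array.

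The other falls were of varied function. Ddah1, which breaks down methylated arginines, changed by -3.11 ± 0.39, and Actn1, an actin crosslinker, by -3.01 ± 0.73. Prss23, a serine protease, changed by -2.95 ± 0.47, and Pfas, an enzyme of purine synthesis, by -2.94 ± 0.65. Fhl1, a LIM domain protein, changed by -2.93 ± 0.71, Upk1b, a uroplakin, by -2.84 ± 0.64, and Ahnak, a large scaffold protein, by -2.70 ± 0.38. Ahnak was even across the arrays, with -2.99, -2.97 and -2.67 on the day 5 arrays, whereas Fhl1 ranged from -0.79 to -3.57 and Upk1b from -1.56 to -4.69. With the day 0 signs turned, Actn1 (-1.65), Fhl1 (-1.31) and Pfas (-1.94) kept their direction but missed the threshold, with adjusted p of 0.147, 0.243 and 0.0537.

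**Figure D2:**
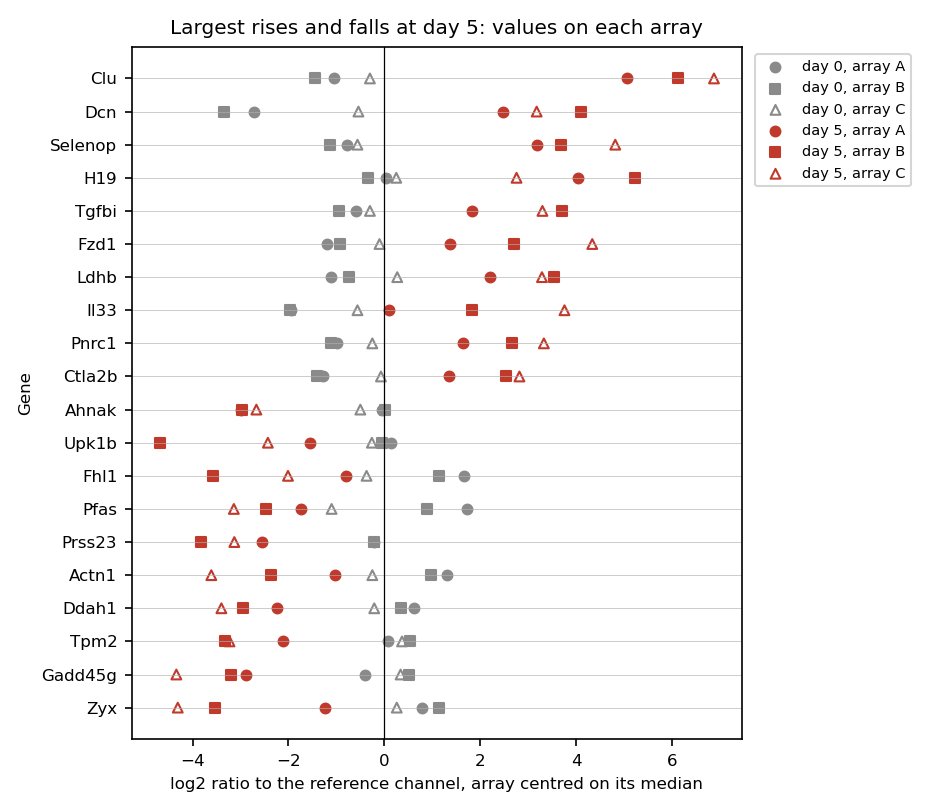
Log2 ratio to the reference channel (horizontal axis) of 20 genes, the 10 largest rises and then the 10 largest falls (vertical axis), on each day 0 array (grey) and each day 5 array (red), with array C as an open triangle. By the rule that chose these genes, no day 5 point overlaps the day 0 points of its gene. Day 0 array C lies nearer to 0 than arrays A and B for most of the genes, as for Dcn at -0.54 against -2.72 and -3.34.

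Of 43 hepatocyte and hepatoblast markers 5 were tested, and of these Igf2 and H19 rose and 3 were not called. Igf2, a fetal growth factor from the same imprinted locus as H19, stood at -0.16, -0.41 and -0.32 at day 0 and at 1.49, 2.40 and 1.01 at day 5, a rise of 1.93 ± 0.59 (adjusted p = 0.0227). The Igf2 call was lost without day 5 array B (adjusted p = 0.102) and without day 0 array A (0.0544) or B (0.076). Afp, alpha-fetoprotein, stood at -0.37, -0.80 and -0.56 at day 0 and at 1.20, 2.29 and 0.45 at day 5 without overlap. Its change of 1.89 ± 0.69 missed the threshold (adjusted p = 0.0537) and passed it without day 5 array C (2.32, adjusted p = 0.0439). Apob, the structural protein of liver lipoproteins, had a change of -0.18 ± 0.20 with overlapping arrays (adjusted p = 0.55), and Gpc3, a fetal liver proteoglycan, one of -0.37. The hepatocyte list had array medians of 1.20 and 2.35 on arrays A and B and of 0.45 on array C. No feature of the named annotation listed Alb, albumin, and Krt19, a keratin of duct cells, and Jag1, a Notch ligand, had values on 14 and 1 of the 24 arrays, so they were not tested.

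Of 11 secreted plasma proteins tested from a list of 30, 7 were higher (63.6%, against 11.7% of all units) and 0 lower. The list's median change was 1.85 against -0.01 for all units. Lbp, an acute phase protein that binds bacterial lipopolysaccharide, went from -1.33, -0.88 and -0.00 to 3.54 on array A and 3.42 on array C, with no value on B, a rise of 4.21 ± 0.63 (adjusted p = 0.000159). C1ra, a protease of the complement cascade, went from -0.59, -0.93 and -0.28 to 2.00, 1.90 and 2.44, a rise of 2.71 ± 0.39 (adjusted p = 7.73e-05). Serping1, the inhibitor of that protease, rose by 2.42, Ctsd by 1.85 and Serpinf1 by 1.08. Ctsd is also counted among the lysosomal genes below. The 4 members that missed the threshold were Igfbp4 (0.60), Fn1 (0.33), Pros1 (-0.01) and F3 (-1.07). The count ranged from 5 to 7 when any 1 of the 6 arrays was left out, and it was 7 with the day 0 signs turned.

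The STAT3 pathway carries signals of the interleukin 6 family from receptor to nucleus, where it drives acute phase genes in liver. Of 22 genes listed for inflammation and the STAT3 response 9 were tested. From receptors to targets, 8 of the 9 were higher (88.9%, against 11.7% of all units) and 0 lower, with a median of 1.20. These 8 include Lbp, which is also counted among the plasma proteins above. The receptor Osmr went from -0.39, -0.32 and 0.26 to 1.05, 1.55 and 3.25, a rise of 2.10 ± 0.58 (adjusted p = 0.0133), and was highest on array C. The shared receptor chain Il6st rose by 1.37 ± 0.36, with array C the lowest at 0.75. The kinases Jak1 and Jak2 rose by 1.16 and 1.13. Stat3 itself went from -0.60, -0.38 and 0.54 to 0.84, 1.59 and 0.73, a rise of 1.20 ± 0.33 (adjusted p = 0.013). Socs3, the feedback inhibitor and target of the pathway, went from -0.82, -0.64 and 0.17 to 1.77, 1.55 and 0.84, a rise of 1.82 ± 0.45 (adjusted p = 0.00749). Nfkbia, the inhibitor of NF-kappa B, had a change of -0.20 that missed the threshold. The 8 calls became 5 without day 5 array C and 4 without day 0 array A or without day 0 array B, and it was 4 with the day 0 signs turned. Without day 0 array A the adjusted p was 0.0766 for Stat3 and 0.0521 for Osmr, and without day 5 array C it was 0.0909 for Osmr.

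Ductal markers were sparse, with 6 of 30 tested and 1 called, as higher (16.7%, against 11.7% of all units). Anxa4, an annexin of duct epithelium, went from -0.07, -0.21 and 0.03 to 1.15, 1.68 and 0.98, a rise of 1.35 ± 0.21 (adjusted p = 0.000242). Bicc1, an RNA binding protein of ductal cells, stood at 2.08 and 2.77 on arrays A and B and at -1.24 on array C. Its change of 1.56 ± 1.00 missed the threshold (adjusted p = 0.271). Sox4 (0.57), Itga6 (-0.46) and Cd24a (-0.75) also missed it. The list's median was 0.90 and 0.54 on arrays A and B and -0.84 on array C.

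Lysosomes degrade proteins, lipids and glycans with acid hydrolases, and many of their genes carry an E-box, CACGTG, which TFEB and related factors bind. Of 29 lysosomal genes tested from a list of 57, 20 were higher (69.0%) and 0 were lower, against 11.7% of all units, and the median change was 1.61. The count stayed between 16 and 20 when any 1 of the 6 arrays was left out, and it was 11 with the day 0 signs turned, with a median of 0.99.

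RefSeq promoter windows on GRCm38.p6, from 250 bases before to 50 after the gene start, were found for 18 of the 20 lysosomal genes that rose, and 7 of them (38.9%) held CACGTG, a palindrome that reads the same on both strands. Of the 8 lysosomal genes with a window that were not called, 3 (37.5%) held it. By comparison, 8.09% of all 27025 genes with a window held it. The 4 stretches below, of 80 bases each and written 5′ to 3′ on the strand of the gene, show the E-box (capitals) of genes that rose.
Ctsl, chr13:64370691-64370770, minus strand: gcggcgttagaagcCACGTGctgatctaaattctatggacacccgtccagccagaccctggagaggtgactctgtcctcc
Ctsa, chr2:164833693-164833772, plus strand: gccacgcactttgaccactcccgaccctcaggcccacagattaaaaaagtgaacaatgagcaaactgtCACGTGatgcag
Ctsd, chr7:142387883-142387962, minus strand: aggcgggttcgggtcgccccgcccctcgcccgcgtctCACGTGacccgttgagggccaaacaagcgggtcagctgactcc
Cd164, chr10:41519376-41519455, plus strand: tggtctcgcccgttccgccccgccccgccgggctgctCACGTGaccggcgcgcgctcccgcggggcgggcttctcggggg
Counted from the gene start, the E-box shown begins at position -236 in Ctsl, -98 in Ctsd, -87 in Cd164 and -12 in Ctsa. A match describes the letters of the window and does not show that a factor binds there.

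Hydrolases led the lysosomal group. Ctsb, the protease cathepsin B, went from -0.24, -0.59 and -0.04 to 2.03, 2.44 and 2.82, a rise of 2.72 ± 0.27, or 6.59-fold (adjusted p = 2.11e-06). Ctsl, cathepsin L, went from -1.38, -1.11 and 0.22 to 1.49, 2.64 and 1.58, a rise of 2.66 ± 0.40. With the day 0 signs turned the change of Ctsl was 1.15 (adjusted p = 0.0643). Hexa, a subunit of the hexosaminidase that degrades gangliosides, went from -0.68, -0.38 and 0.06 to 1.86, 2.72 and 2.30, a rise of 2.62 ± 0.27 (adjusted p = 2.4e-06). The membrane protein Lamp2 rose by 2.43 ± 0.26, to 1.60, 2.20 and 2.02. In these 4 genes no day 5 array came near the day 0 values. The other 16 rises ran from 0.94 for Laptm4a to 2.34 for Ctsa, the protective protein cathepsin A, and took in Ctsd (1.85), the sphingolipid activator precursor Psap (2.01) and Cd164 (1.68). The 9 genes not called ran from -0.10 for Grn to 1.19 for Gla.

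The vacuolar ATPase acidifies lysosomes. Of its 11 tested genes, 5 were higher (45.5%, against 11.7% of all units) and 0 lower. Atp6ap2, an accessory subunit, went from -1.21, -0.88 and 0.20 to 1.48, 2.36 and 1.71, a rise of 2.48 ± 0.35 (adjusted p = 6.86e-05). Atp6v0d1, of the membrane sector, rose by 1.54 ± 0.26 and Atp6ap1, another accessory subunit, by 1.52 ± 0.28. Atp6v1d, of the catalytic sector, was called at 1.26 ± 0.44, but its values of -0.05, 0.66 and 1.58 overlapped with day 0, where array C stood at 0.05, and its call was lost without day 5 array C (0.84, adjusted p = 0.212), day 5 array B or day 0 array A or B. The count was 3 without day 5 array B, without day 0 array A or without day 0 array B, and 2 with the day 0 signs turned.

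Autophagy genes enclose cell contents in vesicles bound for the lysosome. Of 19 tested, 9 were higher (47.4%, against 11.7% of all units) and 0 lower, with a median of 0.77. The group was led by receptors of mitophagy, the removal of mitochondria. Bnip3 went from -1.26, -1.11 and -0.23 to 1.54 on array A and 3.02 on array C, with no value on B, a rise of 3.15 ± 0.71 (adjusted p = 0.004) that missed the threshold without array C (adjusted p = 0.0678). Bnip3l went from -0.87, -0.73 and -0.13 to 1.43, 1.78 and 2.15, a rise of 2.36 ± 0.26 (adjusted p = 4.99e-06). The vesicle protein Map1lc3b rose by 1.93 ± 0.31, to 0.90, 1.46 and 1.37, and Pink1, a kinase that marks damaged mitochondria, by 1.57 ± 0.27. Array C was highest for Bnip3 and Bnip3l. The cargo receptor Nbr1 (1.48), the initiating kinase Ulk1 (0.88) and Atg14 (1.13) also rose. With the day 0 signs turned the list counted 3 rises, and Map1lc3b had a change of 0.55 (adjusted p = 0.26).

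**Figure D3:**
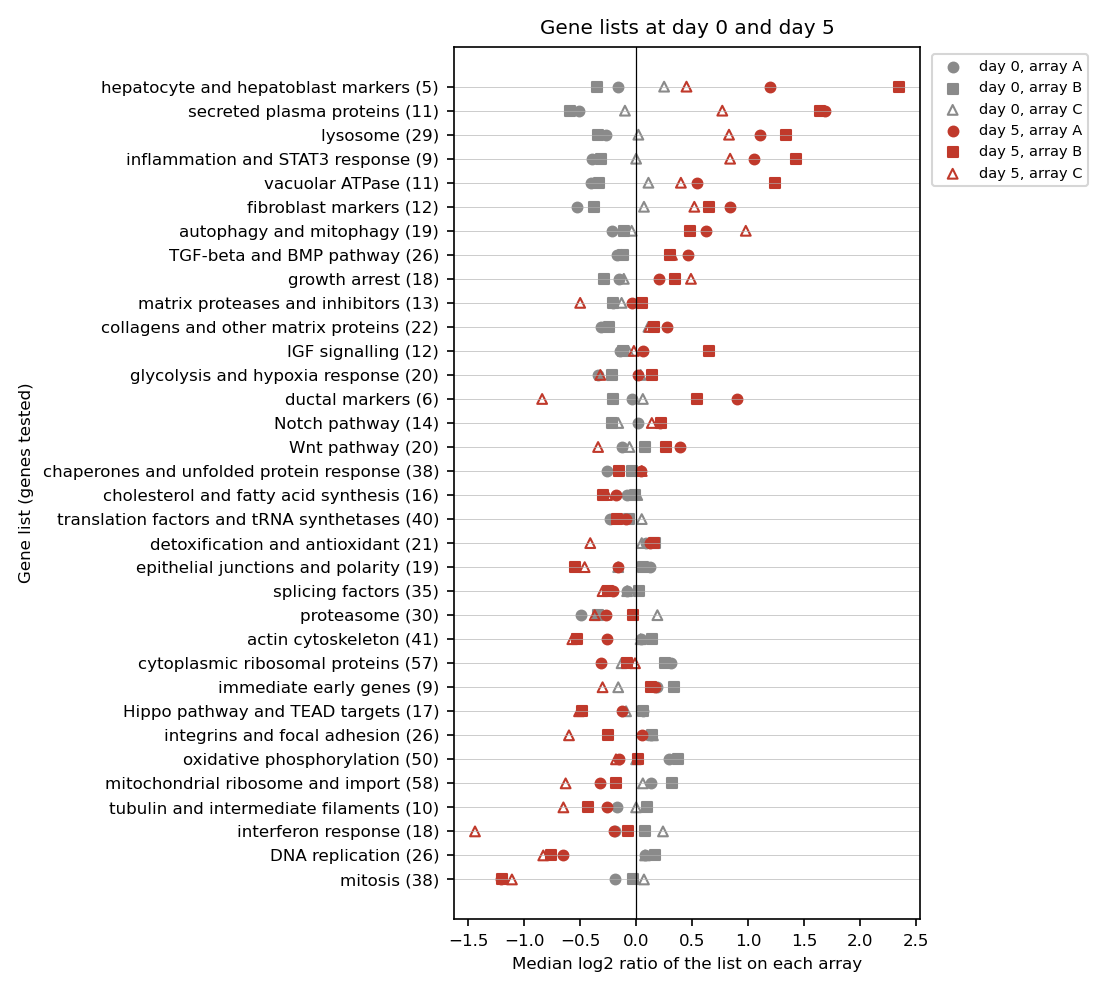
Median log2 ratio of each gene list (vertical axis, number of genes tested in brackets) on each day 0 array (grey) and each day 5 array (red), with array C as an open triangle. At day 5, in letter order, lysosome medians were 1.11, 1.34 and 0.83, mitosis medians were -1.21, -1.20 and -1.11, and interferon response medians were -0.20, -0.07 and -1.44.

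Cell cycle genes were followed in lists of DNA replication and mitosis. Of 26 DNA replication genes tested, 10 were lower (38.5%) and 0 higher, with a median of -0.67, and of 38 mitosis genes 20 were lower (52.6%) and 0 higher, with a median of -1.15. By comparison, 11.2% of all units were lower. The mitosis count stayed between 17 and 19 when any 1 of the 6 arrays was left out and was 21 with the day 0 signs turned. The replication count fell to 6 without day 0 array B and was 6 with the signs turned. The mitosis medians of the day 5 arrays were -1.21, -1.20 and -1.11, so array C did not stand apart here.

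Late cell cycle genes often carry a CHR element, TTTGAA, near the gene start, together with CCAAT boxes. Promoter windows were found for 17 of the 20 mitosis genes that fell, and 14 of them (82.4%) held TTTGAA on either strand. It was held by 9 of 15 mitosis genes not called (60%) and by 20.2% of all genes with a window. CCAAT, on either strand, was in 13 of the 17 (76.5%), in 11 of the 15 not called (73.3%) and in 41.1% of all genes. The E2F element GCGGGAA was in 5 of 9 replication genes that fell (55.6%), in 5 of 15 not called (33.3%) and in 5.29% of all genes. None of these letter strings contains another of them. The 4 stretches below, of 80 bases each on the strand of the gene (GRCm38.p6, RefSeq), show the CHR element in capitals for mitosis genes that fell. It is written TTCAAA where it lies on the opposite strand.
Ube2c, chr2:164769849-164769928, plus strand: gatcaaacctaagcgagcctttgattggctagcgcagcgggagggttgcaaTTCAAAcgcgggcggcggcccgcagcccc
Cks1b, chr3:89418292-89418371, minus strand: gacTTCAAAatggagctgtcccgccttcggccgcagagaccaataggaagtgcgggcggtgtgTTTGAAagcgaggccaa
Prc1, chr7:80294396-80294475, plus strand: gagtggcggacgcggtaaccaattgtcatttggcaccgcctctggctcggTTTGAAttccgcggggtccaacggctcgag
Kif22, chr7:127042421-127042500, minus strand: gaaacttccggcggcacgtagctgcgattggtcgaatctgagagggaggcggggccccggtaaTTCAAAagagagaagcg
Counted from the gene start, the element nearest to it begins at position -29 in Ube2c, -30 in Prc1 and -17 in both Cks1b and Kif22.

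Cks2, a small subunit that binds cyclin dependent kinases, went from 1.37, 1.45 and -0.16 to -1.10, -1.58 and -2.35, a change of -2.56 ± 0.41 on the log2 scale (adjusted p = 0.000224). Its change was -0.79 with the day 0 signs turned (adjusted p = 0.232). Cks1b, its relative, went from 0.63, 0.50 and -0.09 to -1.53, -1.16 and -1.66, a change of -1.80 ± 0.23. Ube2c, the ubiquitin conjugating enzyme of mitotic exit, went from 0.56, 0.75 and 0.09 to -1.28, -1.23 and -2.16, a change of -2.03 ± 0.34, and the midzone protein Prc1 changed by -1.71 ± 0.27. All 3 day 5 arrays lay below every day 0 array for these 4 genes. Other falls were those of the regulator Foxm1 (-1.19), the cyclins Ccna2 (-1.04) and Ccnb2 (-1.18), the kinase Plk1 (-1.24) and Kif22 (-1.42). Of the 18 not called, Aurka (-1.59) and Mki67 (-1.25) had large changes but wide spreads, with Mki67 at -1.83, -1.64 and 0.51 on the day 5 arrays.

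In replication, Rrm2, the regulated subunit of ribonucleotide reductase, went from 0.72, 0.31 and -0.65 to -1.59 on array A and -2.84 on array C, with no value on B, a change of -2.34 ± 0.56 (adjusted p = 0.00644) that missed the threshold without array C (adjusted p = 0.0971). Cdc6, which loads the replicative helicase, went from 0.65, 0.90 and 0.09 to -0.98, -1.88 and -1.79, a change of -2.09 ± 0.34 (adjusted p = 0.000228). The helicase subunits Mcm5 and Mcm2 changed by -1.63 ± 0.30 and -1.61 ± 0.42. Mcm2 ranged from -0.75 on array A to -2.26 on array C and missed the threshold without array C (adjusted p = 0.0689) or day 0 array B (0.0509). The polymerases Pold1 (-1.39) and Pole (-1.20) fell as well. The 16 genes not called all had changes below 0, from -0.01 for Rfc2 to -1.69 for Tk1.

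Growth arrest genes moved in both directions, with 4 of 18 higher (22.2%, against 11.7% of all units) and 2 lower (11.1%, against 11.2%). Sesn1, a stress protein that restrains growth signalling, went from -0.47, -0.45 and -0.34 to 2.39, 2.27 and 2.98, a rise of 2.97 ± 0.36 (adjusted p = 1.54e-05). Pnrc1 rose, as above, and Btg1, an antiproliferative gene, rose by 2.46. Trp53inp1, a p53 target, had values on day 0 arrays A and B (-1.41 and -1.29) and day 5 arrays A and C (1.23 and 1.36), a rise of 2.65 ± 0.28 whose direction turned with the day 0 signs (-0.06). Gadd45g (-3.63) and Ccng1 (-1.17) fell. Cdkn1b, the inhibitor p27, had a change of 0.13 that was not called.

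In the actin cytoskeleton list 14 of 41 genes were lower (34.1%, against 11.2% of all units), and the list's median was -0.29. Only 3 were higher, a share (7.32%) below the 11.7% of all units. Actn1, which crosslinks actin filaments, went from 1.30, 0.98 and -0.25 to -1.02, -2.36 and -3.61. Tmsb4x, thymosin beta 4, which binds actin monomers, went from -0.28, 0.25 and 0.52 to -1.86, -2.35 and -2.75, a change of -2.49 ± 0.38 (adjusted p = 0.000142). Aif1l, an actin binding protein, went from 0.80, 0.99 and 0.36 to -1.08 on array A and -2.80 on array C, a change of -2.66 ± 0.47. Actb, beta-actin, went from 1.40, 1.00 and -0.67 to -0.83, -1.31 and -3.45, and its change of -2.44 ± 0.84 (adjusted p = 0.0418) missed the threshold without day 5 array C (-1.65, adjusted p = 0.208), day 5 array B or day 0 array A or B. Actb also has a close relative in Actg1, which its features may not separate. For Actb, Actn1 and Aif1l, array C was the lowest. Flna (-1.80), Tpm1 (-1.49) and the myosin light chain Myl6 (-1.35) also fell. The 3 rises were all subunits of the Arp2/3 complex, which nucleates branched actin: Arpc1a (1.70), Arpc2 (1.29) and Arpc1b (1.13). The rises counted 1 without day 0 array A or B. Of the complex, Arpc4 (-0.13) and Arpc5 (0.10) were not called. The count of falls was 9 without day 5 array C, without day 0 array B and with the day 0 signs turned.

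Of 26 integrin and focal adhesion genes, 8 were lower (30.8%, against 11.2% of all units). The 2 that were higher made a share (7.69%) below the 11.7% of all units. Cav1, the coat protein of caveolae, stood close to 0 on every day 0 array (-0.06, -0.11 and -0.06) and at -2.10, -2.69 and -3.29 at day 5, a change of -2.62 ± 0.36 (adjusted p = 4.78e-05). Itga3, a laminin receptor chain, went from 0.96, 1.26 and 0.46 to 0.35, -2.41 and -2.90, a change of -2.55 ± 0.66 (adjusted p = 0.00921) that missed the threshold without array C (adjusted p = 0.0618). On array A it lay just below day 0 array C, and with the day 0 signs turned its change was -0.76 (adjusted p = 0.497). Vcl, vinculin, changed by -1.58 and Lpp, a partner of zyxin, by -1.63. The 2 genes that rose, Itgb5 and Itgb3, encode vitronectin receptor chains. Itgb5 went from -1.62, -1.59 and 0.35 to 1.33, 0.89 and 1.17, a rise of 2.09 ± 0.42 (adjusted p = 0.00149), which was 0.17 with the day 0 signs turned (adjusted p = 0.834). Itgb3 rose by 1.66 ± 0.53 from values on 2 arrays of each day, and its call was lost without day 5 array B, day 0 array A or day 0 array B. With the day 0 signs turned the change of Itgb3 was 1.59 and missed the threshold (adjusted p = 0.0591). The falls counted 4 without day 5 array C, and the list's median of -0.40 became 0.09 with the day 0 signs turned. Itga6 (-0.46) and Itgb1 (-0.67), further laminin receptor chains, were not called. TEAD elements (GGAATG, either strand) were in promoter windows of 2 of the 8 genes that fell (25%), of 3 of 11 not called (27.3%) and of 16.6% of all genes. A CArG box was in windows of 1 of 12 actin genes that fell (8.33%), of 3 of 21 not called (14.3%) and of 1.81% of all genes.

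Tubulin and intermediate filament genes gave 4 of 10 lower and 0 higher. Lmna, lamin A and C of the nuclear envelope, went from 0.06, 0.79 and 0.74 to -1.12, -1.44 and -1.35, a change of -1.83 ± 0.27 (adjusted p = 0.000111). The linker Plec (-1.78 ± 0.48) and the tubulins Tubb6 (-1.78 ± 0.41) and Tubb2b (-1.16 ± 0.25) also fell. Tubulin genes are close copies of each other, so their features may not separate them. Tubb2b was even on the day 5 arrays, at -1.33, -1.32 and -1.31.

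Among epithelial junction and polarity genes 4 of 19 were lower (21.1%, against 11.2% of all units) and 2 higher (10.5%, against 11.7%). The polarity proteins Pard6b (-1.67 ± 0.38) and Crb3 (-1.45 ± 0.32) and the gap junction protein Gja1 (-1.62 ± 0.35) fell, as did the tight junction protein Cldn12. Ctnnb1, beta-catenin, a part of adherens junctions and of Wnt signalling, went from -0.33, -0.47 and -0.58 to 0.79, 0.96 and 1.68, a rise of 1.60 ± 0.32 (adjusted p = 0.00131). Its change was 0.68 with the day 0 signs turned (adjusted p = 0.17).

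The Hippo pathway restrains the coactivators Yap1 and Wwtr1, which act with TEAD factors in spread cells. Of 17 genes, 4 were lower (23.5%, against 11.2% of all units) and 1 higher (5.88%, against 11.7%). Amotl2, a target and inhibitor of Yap1, went from -0.13, 0.35 and 0.21 to -1.30, -2.77 and -2.58, a change of -2.35 ± 0.35 (adjusted p = 0.000112). Vgll3, a TEAD cofactor, changed by -1.44 ± 0.42, the survivin gene Birc5 by -1.13 ± 0.29 and the upstream regulator Nf2 by -0.71. Mob1b, a kinase activator of the pathway, rose by 0.81 ± 0.27, a call lost without day 5 array B or C or day 0 array B or C. Yap1 (-0.67), Wwtr1 (0.27) and Tead1 (-0.81) were not called. The count of falls was 2 without day 5 array C or without day 0 array B, and Vgll3 lost its call without day 5 array B, day 0 array A or day 0 array B.

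**Figure D4:**
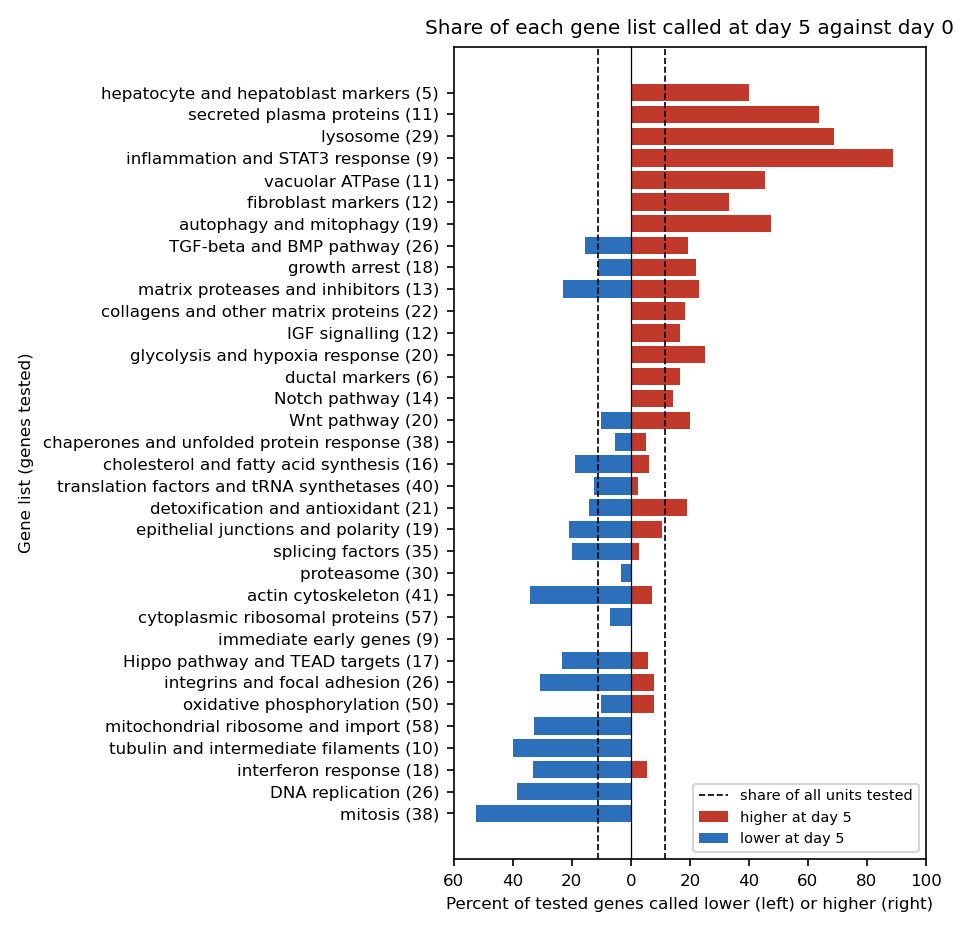
Percent of tested genes of each list (vertical axis, number tested in brackets) called lower (blue, to the left) or higher (red, to the right) at day 5 against day 0. Dashed lines mark the shares of all units tested, 11.2% lower and 11.7% higher. Lysosome (69.0%) and mitosis (52.6%) lie far beyond them, on opposite sides, and immediate early genes have no call.

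Of 22 collagens and other matrix proteins tested, 4 were higher (18.2%, against 11.7% of all units) and 0 lower: Dcn, Tgfbi, Olfml3 and Loxl1. The count was 1 with the day 0 signs turned. Olfml3, a secreted matrix protein, went from -1.74, -1.29 and 0.40 to 1.80, 2.30 and 1.46, a rise of 2.73 ± 0.50 (adjusted p = 0.000684), with a change of 0.98 when the day 0 signs were turned (adjusted p = 0.217). Loxl1, a crosslinker of elastin, rose by 1.04 ± 0.30. The fibrillar and type VI collagens Col3a1 (1.03), Col1a2 (0.88) and Col6a1 (1.20) had positive changes that missed the threshold. The basement membrane genes Col4a1 (-0.12), Lamc1 (-0.06), Lamb1 (0.65) and Nid1 (-0.34) were not called. The list's median of 0.31 became -0.20 with the day 0 signs turned.

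Matrix proteases and inhibitors gave 3 of 13 higher (23.1%, against 11.7% of all units) and 3 lower (23.1%, against 11.2%). Cemip, which takes part in the breakdown of hyaluronan, went from 0.92, 1.25 and 0.27 to -2.29 on array A and -3.11 on array C, with no value on B, a change of -3.51 ± 0.49 on the log2 scale, or 11.4-fold (adjusted p = 7.24e-05). Timp3, an inhibitor of metalloproteinases held in the matrix, went from -0.79, -0.55 and 0.03 to -2.33, -2.39 and -3.32, a change of -2.24 ± 0.36. Plat, tissue plasminogen activator, rose by 2.79 ± 0.59, to 2.07 and 3.35 on arrays A and B and to 0.92 on array C. Adam12 (1.56) and Adam19 (0.85) rose too. Prss23 was the third fall. With the day 0 signs turned the list counted 0 rises and 3 falls.

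In TGF-beta and BMP signalling 5 of 26 genes were higher (19.2%, against 11.7% of all units) and 4 lower (15.4%, against 11.2%). Bmp4, a ligand, stood at -0.23, -0.17 and 0.01 at day 0 and at -1.65, -2.59 and -2.54 at day 5, a change of -2.13 ± 0.51 (adjusted p = 0.00647). Fst, follistatin, which traps activins, went from -0.46, 0.03 and -0.22 to -1.61, -1.69 and -1.97, a change of -1.54 ± 0.29 (adjusted p = 0.000959). The receptor Acvr1b rose by 1.31 ± 0.25, to 1.23, 1.23 and 0.99, and Acvr1 by 0.79. The transducers Smad3 (1.19) and Smad5 (1.14) rose, whereas Smad2 (-0.38) and Smad4 (0.36) were not called. The target genes Id2 and Id3 were not called either. Id3 stood at 0.76 and 1.06 on arrays A and B and at -0.05 on C. Id2 stood at 0.76, 0.44 and -2.05, and 1 of its 2 features moved against the other. Dropping the C arrays of days 4 to 7 gave 11 higher and 6 lower in this list.

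Wnt signalling gave 4 of 20 higher (20.0%, against 11.7% of all units) and 2 lower (10.0%, against 11.2%). Fzd1, Ctnnb1, the kinase Csnk1d (1.02 ± 0.34) and the receptor Fzd3 (1.01) rose, and Fzd8 (-0.72) and the cyclin Ccnd2 (-1.13 ± 0.29) fell. Without day 5 array C 2 were higher and 0 lower, and without day 0 array A or B 2 were higher. The Notch list gave 2 of 14 higher (14.3%, near the 11.7% of all units) and 0 lower. Hes6, a bHLH factor, went from -0.59, -0.28 and 0.16 to 0.76, 1.11 and 1.32 (1.30 ± 0.32, adjusted p = 0.00754). Dtx4, a ubiquitin ligase, stood at 0.63, 0.64 and 0.21 at day 0 and at 3.52 and 3.70 on day 5 arrays B and C (3.12 ± 0.48). In IGF signalling Igf2 and H19 were the only genes called of 12 (16.7%, against 11.7% of all units), and Igf1r (0.01) and Igfbp3 (1.54) were not. Igf2 and H19 are also the called genes of the hepatocyte and hepatoblast list above.

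Interferon response genes gave 6 of 18 lower (33.3%, against 11.2% of all units) and 1 higher (5.56%, against 11.7%). Usp18, a protease that removes ISG15, went from -0.15, 0.38 and 0.38 to -1.31, -2.83 and -2.43, a change of -2.39 ± 0.34 (adjusted p = 7.07e-05). Xaf1 changed by -2.22 ± 0.33, with -2.22, -2.32 and -2.67 on the day 5 arrays, and Rsad2, the antiviral protein viperin, by -2.16 ± 0.42. Bst2, tetherin, stood at -1.12 and -1.35 on arrays A and B and at -5.04 on array C, and its change of -2.69 ± 0.95 (adjusted p = 0.0469) missed the threshold without array C (-1.42, adjusted p = 0.284) or without any 1 day 0 array. Irf1, a factor that also responds to STAT signals, rose by 1.90. The list's median change was -0.36 on arrays A and B and -1.69 on array C, and the list counted 3 falls without array C.

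Among genes of energy metabolism, 5 of 20 glycolysis and hypoxia genes were higher (25.0%, against 11.7% of all units) and 0 lower. The 5 were Ldhb, Bnip3, Bnip3l, Hif1a and Hk1. Of these, Bnip3 and Bnip3l are also counted among the autophagy genes above. Hif1a, the oxygen sensing factor, went from -0.41, -0.86 and -0.66 to 0.51, 0.78 and 1.21, a rise of 1.48 ± 0.32 (adjusted p = 0.0024) that was 0.19 with the day 0 signs turned (adjusted p = 0.743). Hk1, hexokinase, rose by 1.01. Most glycolytic enzymes were not called, among them Gapdh (-1.16), Ldha (-0.36), Pkm (-0.28) and Pgk1 (0.71). Oxidative phosphorylation gave 5 of 50 lower (10%) and 4 higher (8%), close to the shares of all units. Cycs, cytochrome c, went from 0.61, 0.67 and -0.18 to -1.08, -1.10 and -1.27, a change of -1.51 ± 0.21 (adjusted p = 5.53e-05). The complex I subunit Ndufa12 changed by -1.35 ± 0.25 and the heme enzyme Cox10 by -1.29 ± 0.18. With the day 0 signs turned, these changes were -0.31 (adjusted p = 0.453) and -0.25 (adjusted p = 0.383). The ATP synthase gene Atp5g1 changed by -1.32 ± 0.46, a call lost without day 5 array B or C or day 0 array A or B. Sdha (1.28), Sdhc (0.77), Uqcrc2 (1.24) and Cox7a2l (0.98) rose. The 4 rises counted 0 without day 0 array A or without day 0 array B.

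The mitochondrial ribosome and import machinery gave 19 of 58 lower (32.8%, against 11.2% of all units) and 0 higher, with a median of -0.53. Tomm5, of the outer membrane import pore, went from 1.00, 1.18 and 0.12 to -0.39, -1.01 and -0.98, a change of -1.56 ± 0.32 (adjusted p = 0.00179). The ribosomal proteins Mrps28 (-1.55 ± 0.33), Mrpl40 (-1.53 ± 0.24) and Mrpl20 (-1.43 ± 0.35) fell similarly. Mrpl40 was even across the day 5 arrays, at -1.35, -1.24 and -1.34. The list's medians were 0.13, 0.32 and 0.06 at day 0. With the day 0 signs turned the list counted 6 falls, and the change of Tomm5 was -0.02. The count was 12 without day 5 array C and 9 without day 0 array B.

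The cytoplasmic ribosome gave 4 of 57 lower (7.02%, against 11.2% of all units) and 0 higher, with a median of -0.35. These were Rpl27 (-1.03 ± 0.25), Rpl29 (-0.91 ± 0.24), Rps25 (-0.89 ± 0.30) and Rpl7a (-0.82 ± 0.24), all of large families with many processed copies in the genome. The arrays of Rps25 overlapped between the days and its call was lost without day 5 array A or B or day 0 array A or B, and that of Rpl7a without day 5 array C or day 0 array B. The proteasome gave 1 of 30 lower (3.33%, against 11.2% of all units), the activator subunit Psme3 (-1.58 ± 0.48). The arrays of Psme3 overlapped with day 0, and its call was lost without day 5 array B or C or day 0 array A or B. Chaperone and unfolded protein genes gave 2 higher and 2 lower of 38, or 5.26% each way, below the shares of all units. Dnajb4 (0.78 ± 0.20) and Bag3 (0.67 ± 0.24) were higher, and Asns (-0.96 ± 0.30) and Atf4 (-0.61 ± 0.20) were lower. The call of Bag3 was lost without any 1 of the 6 arrays, Asns and Atf4 each lost theirs in 4 of these 6 settings, and without day 0 array B the list had 0 calls. Translation factors gave 5 of 40 lower (12.5%, near the 11.2% of all units) and 1 higher, Eif4b (1.13 ± 0.28). The falls were led by Eef1e1 (-2.05 ± 0.37), Iars (-1.03 ± 0.24) and Eif5a (-0.99 ± 0.27). Splicing factors gave 7 of 35 lower (20.0%, against 11.2% of all units) and 1 higher (2.86%, against 11.7%). Among the falls were the small nuclear ribonucleoproteins Snrpd1 (-2.33 ± 0.47), Snrpd2 (-1.16 ± 0.35) and Snrpb2 (-1.07 ± 0.28) and the RNA binding protein Hnrnpf (-1.98 ± 0.44). Without day 5 array C the falls counted 2 for translation and 2 for splicing. Immediate early genes gave 0 calls of 9, with changes from -0.88 for Jun to 0.51 for Fos.

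Sterol and fatty acid synthesis gave 3 of 16 lower (18.8%, against 11.2% of all units) and 1 higher (6.25%, against 11.7%). Sqle (-1.11 ± 0.30), Idi1 (-1.07 ± 0.37) and Acaca (-0.63 ± 0.21) fell, and Insig2 (1.27 ± 0.20), which restrains sterol synthesis, rose. The 3 falls were lost without day 5 array C or without day 0 array B. Detoxification and antioxidant genes moved in both directions, with 4 of 21 higher (19%, against 11.7% of all units) and 3 lower (14.3%, near the 11.2% of all units). Aldh1a1, which makes retinoic acid, went from 0.25, 0.51 and 0.27 to -1.45, -2.78 and -1.94, a change of -2.40 ± 0.35 (adjusted p = 9.47e-05). Mgst1, a microsomal glutathione transferase, went from -0.59, -0.64 and -0.02 to 1.84, 2.77 and 2.63, a rise of 2.83 ± 0.35 (adjusted p = 1.87e-05). Gstm1, which has close relatives in its gene cluster, rose by 1.68 ± 0.47. Its call was lost without day 5 array B or day 0 array A or B, and with the day 0 signs turned (1.21, adjusted p = 0.0964). The transporter Abcc3 fell by 1.68 on the log2 scale, whereas Cyp2s1 was called at -1.90 ± 0.62 with overlapping arrays. Mt1, a metallothionein that binds zinc, went from 0.74, 1.18 and 0.07 to 1.87, 2.49 and 2.56, a rise of 1.64 ± 0.44 (adjusted p = 0.0115). Its neighbour Mt2 stood at 1.38, 0.98 and -0.44 at day 0 and at 1.33, 1.38 and 1.37 at day 5 and was not called.

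Markers of cell types other than hepatoblasts were followed because feeder fibroblasts had been removed before the culture. Of 24 fibroblast markers 12 were tested and 4 were higher (33.3%, against 11.7% of all units): Dcn, Pdgfrb, Loxl1 and Prrx1. Pdgfrb, a receptor of mesenchymal cells, went from -0.88, -0.32 and 0.40 to 1.56, 1.31 and 0.99, a rise of 1.55 ± 0.45 (adjusted p = 0.0179). Prrx1, a mesenchymal factor, rose by 0.76 ± 0.26. The list's array medians were -0.53, -0.38 and 0.07 at day 0 and 0.84, 0.65 and 0.52 at day 5, a median change of 0.82, and the calls numbered 1 without day 0 array B and 0 with the day 0 signs turned. Dcn and Pdgfrb are themselves members of the list, and the part of fibroblasts in the matrix gene values was not tested. In such bulk RNA, fewer or more cells of a type and less or more RNA per cell cannot be told apart. Stellate and smooth muscle markers gave 2 of 3 lower, against 11.2% of all units, Mcam (-1.92 ± 0.30) and Smtn (-1.05 ± 0.25). The remaining marker of this list had a change in the other direction (1.11) and was not called. The single endothelial marker tested, Cdh5, had a change of 0.06. Of 3 blood and macrophage markers 1 was higher (33.3%, against 11.7% of all units), Tyrobp, an adaptor of myeloid receptors. Tyrobp rose by 2.37 ± 0.58, without a value on day 0 array C, and its change was 0.88 with the day 0 signs turned (adjusted p = 0.36). Lyz2 (0.40) and Hba-a1 (0.04) were not called.

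Array C of day 5 differed from arrays A and B by more than A and B differed from each other. On array C, 2446 of 10420 units (23.5%) lay more than 1 log2 unit from the mean of A and B. Where A or B had no value, the other stood for the mean. Array A lay that far from array B in 502 of the 9006 units with both values (5.57%), so these shares are of different sets of units. The genes lowest on array C against A and B were Nek6, a mitotic kinase, at 0.54, 0.29 and -5.04, Hdgf, a growth factor, at -0.35, -0.55 and -5.03, and Ube2s, a ubiquitin conjugating enzyme, at -0.53, -0.72 and -4.76. Hmox1, heme oxygenase, stood at 1.39, 2.15 and -2.20, Raly, an RNA binding protein, at 0.75, 0.05 and -3.62, and Cuedc2 at 0.94, 1.83 and -2.43. Of these 6, Ube2s alone was called against day 0 (-2.51 ± 0.71, adjusted p = 0.0173), and Hmox1 passed the threshold without array C (1.89, adjusted p = 0.0038). Highest on array C were Mki67, Egfr, the receptor of epidermal growth factor, at -0.99, -1.01 and 1.25, and Sgo1, a protector of centromeres, at 0.13, 0.04 and 2.33. Pxylp1, an enzyme of proteoglycan synthesis, at 1.74, 1.60 and 3.89, Il33 and Fzd1 rose on all 3 arrays and most on C. By list, array C lay below arrays A and B for immediate early genes (median difference -1.13), ductal markers (-1.02), hepatocyte markers (-0.93) and interferon genes (-0.67), and close to them for mitosis (-0.05) and growth arrest (0.05).

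Day 5 was compared with its neighbouring days in the main fit, which did not pair arrays by letter. Same-letter deviations correlated at 0.824, 0.779 and 0.926 between days 4 and 5. The main fit counted such shared differences as spread, so it had little power to call a difference between these days. Against day 4, 0 units were called (0%), 44 (0.414%) had an unadjusted p under 0.05, and the median size of the difference was 0.124 log2 units. A block of letters within only days 4 and 5, chosen after seeing the data, gave 0 calls and 553 units with an unadjusted p under 0.05. Against day 6, 0 units were called (0%), 448 (4.21%) had an unadjusted p under 0.05, and the median size was 0.219. There the block within only days 5 and 6 gave 0 calls and 211 units with an unadjusted p under 0.05. Leaving out day 6 array A gave 6 calls against day 6. The median size against day 0 was 0.513. A comparison that calls no gene does not show that the days were equal, and day 5 minus day 6 was 1.45 for H19, 0.96 for Igf2 and 0.83 for Afp, each with an adjusted p of 0.999.

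Day 5 and day 1 differed in 160 units, 83 higher (0.78%) and 77 lower (0.724%) at day 5, and 1436 had an unadjusted p under 0.05. This tests the difference between the changes at day 5 and day 1, which share the day 0 arrays. Clca3a1, of the family of calcium activated chloride channel regulators, stood at -0.99, -0.46 and -0.73 at day 1 and at 2.68, 3.04 and 4.39 at day 5, a difference of 4.09 ± 0.45 (adjusted p = 8.87e-05). Clu had already reached 1.97, 2.34 and 1.93 at day 1 and was higher again at day 5 by 3.95 ± 0.54 (adjusted p = 0.000448). Dcn (3.50 ± 0.68) and Selenop (2.47 ± 0.47) likewise rose beyond day 1. Dhrs3, a retinal reductase, was higher by 3.03 ± 0.53 and Phyhd1 by 2.57 ± 0.41.

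Of the genes lower at day 5 than at day 1, 6 are named here. Vcan, versican, a matrix proteoglycan, stood at 1.19, 2.78 and 1.70 at day 1 and at -1.59 and 0.30 on day 5 arrays A and C, a difference of -2.53 ± 0.57 (adjusted p = 0.0282), and it did not differ detectably from day 0 (-0.17 ± 0.57). Tagln2, an actin binding protein, was at 0.26, 1.18 and 0.96 at day 1 and at -0.60, -2.19 and -2.02 at day 5, a difference of -2.40 ± 0.41. Itgb3 was highest at day 1 (3.45, 4.02 and 3.68) and its difference at day 5 was -2.09, so that it was lower than at day 1 while still higher than at day 0. Tmsb4x (-2.05 ± 0.38), Kif26b (-1.87 ± 0.41) and the cyclin Ccnb2 (-1.77 ± 0.37) were lower too. In the mitosis list 9 of 38 genes were lower than at day 1, with a median of -0.88, and in the integrin list 4 of 26. By contrast, Zyx had nearly all of its fall at day 1 (-3.41), and Il33 was at 4.70 above day 0 by then. The count of 160 was 39 without day 1 array A, 46 without day 1 array C and 62 without day 1 array B, and it was 78 without day 5 array B, 102 without day 5 array C and 386 once the C arrays of days 4 to 7 were dropped.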

How the data were processed

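Transcripts were measured on 24 arrays of 2 colours, 3 per day. Values are the deposited log2 ratios of the series table, per the labels with the sample in Cy5 and undifferentiated HBC-3 cells in Cy3. Scanner, background correction, normalization, log base and numerator are not stated there. Median log ratios as deposited were 0.0118, -0.0052 and 0.0005 for the day 0 arrays in letter order and -0.0044, -0.0121 and 0.0171 for day 5.

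Of 24157 features, 13908 were in the platform annotation. A single symbol was given for 13319 (13290 updated by Entrez identifier with a RefSeq table of GRCm38.p6, 29 kept), 589 had several genes and 10249 were not listed. Features of a symbol were averaged, and features without a single symbol were tested on their own. Of 19153 units with any value, 10639 passed the filter of 2 values in each of 8 days. Of the genes, 2870 had more than 1 feature.

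Day means over all 24 arrays were fitted with limma 3.58.1 (lmFit, eBayes) in R 4.3.3, 2-sided, with Benjamini-Hochberg adjustment at 0.05. The number of arrays limits the precision, with a median standard error of 0.317. The fit was tested on simulated data. Gene lists are described by counts and medians, without a test.

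Named genes were the 10 largest rises and 10 largest falls without overlap, up to 4 called members of each list, a set of liver and signalling genes, and the 6 most extreme each way against days 1, 4 and 6 and on array C. Members and lists were chosen with earlier results of these data known, and other list members were named after their values were seen.

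Whether letters pair arrays was checked by correlating same-letter deviations from the day means over 7063 units. For day 5 these were 0.824, 0.779 and 0.926 with day 4 and 0.498, 0.142 and 0.573 with day 6, so letters were read as pairs there. The main fit did not use these pairs, and counts with the letter as a block are given beside it. They were 0.005, -0.188 and -0.158 with day 0 and 0.162, -0.136 and -0.122 with day 1, so letters were not read as pairs there.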

Additional observations from a re-analysis of the deposited data

Results flagged for a closer look

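The change from day 0 differed between day 5 and day 1 in 160 units, by limma's test of the difference itself (adjusted p under 0.05). Among the genes with the largest differences, day 5 minus day 1 was 4.09 for Clca3a1, 3.95 for Clu, 3.50 for Dcn, 3.03 for Dhrs3, 2.57 for Phyhd1 and 2.47 for Selenop on the log2 scale. It was -2.53 for Vcan, -2.40 for Tagln2, -2.09 for Itgb3, -2.05 for Tmsb4x, -1.87 for Kif26b and -1.77 for Ccnb2. Clca3a1 and Dhrs3 had changes of -0.22 each against day 0 at day 1, so their rises were seen after the first day, whereas Clu and Selenop had already risen by 3.01 and 2.25 by then.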

How the results depend on the processing

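Day 5 against day 0 had 2435 calls. The count was 1227 to 2624 with 1 array of these days left out, 1117 when only these days were fitted, 1342 with the day 0 signs turned and 4683 with array weights. Against day 1, with 160 calls, it was 39 to 143 with 1 array left out, 386 without the C arrays of days 4 to 7, 17 when only these days were fitted and 269 with arrays scaled to a common spread. Against day 6, with 0 calls, it was 0 to 6, and against day 4 it was 0 in every setting run, the replicate block included. With the letter as a replicate block, day 5 had 3058 calls against day 0 and 318 against day 1. A block within only the days compared, chosen after seeing the data, gave 519 and 5. The causes were not tested, although fits on fewer arrays also have fewer degrees of freedom.

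Of the 132 named calls, 131 held against the reference channel, 132 with the replicate block, 123 with arrays scaled, 120 without the C arrays of days 4 to 7 and 99 to 125 with 1 array left out. With the day 0 signs turned 68 held, 63 kept their direction and missed the threshold, and Trp53inp1 reversed to -0.06. The other reversals were of genes that were not called. Apob gave 0.13 with the day 0 signs turned and 0.05 with day 0 array C alone turned. Egfr gave -0.71 and -0.12 in these settings, -0.25 against the reference channel, and -0.54 to 0.60 with 1 array left out. Cuedc2 gave -0.12 with the signs turned and -0.52 to 1.62 with 1 array left out, including -0.07 without day 5 array A. Without the C arrays of days 4 to 7, Egfr gave -0.54, Id2 0.56, Raly 0.67 and Sgo1 -0.00. With 1 array left out, Id2 ranged from -0.85 to 0.56, Raly from -1.51 to 0.67, Sgo1 from -0.00 to 1.14 and Hmox1 from -0.29 to 1.89. Vcan ranged from -1.11 to 0.78, including 0.16 without day 0 array C, and gave 0.04 with the replicate block. With 3 arrays a day, genes with changes below about 1 log2 unit were often not detectable.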
